A study of Mus musculus with 8 samples.

Results

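The genes described here encode the 3 large families of enzymes that conjugate drugs, toxins, steroids and bile pigments in the liver: the cytosolic glutathione transferases (Gst), the UDP-glucuronosyltransferases (Ugt) and the cytosolic sulfotransferases (Sult). Members were every gene whose name on the array began with Gst and a class letter, or with Ugt or Sult and a number, measured by its brightest probe and kept where that probe was well above background on at least 4 of 8 arrays. The array carried 53 such genes, and 40 passed, namely 18 of 21 Gst, 14 of 15 Ugt and 8 of 17 Sult genes, among 18554 genes or unnamed probes tested in all. The samples were livers of male mice after 5 weeks of fibrosis induction with TAA (the usual abbreviation of thioacetamide) or CCl4 (carbon tetrachloride). The mice were then observed for 2 weeks or 1 week, while miR-29a or a negative control oligonucleotide (NC) was injected every 3 days. After TAA, 1 liver array each was made at 2 weeks with miR-29a, at 2 weeks with NC, at 1 week with miR-29a and at 1 week with NC, and the same 4 combinations were made after CCl4. All 8 livers had been through induction and injections, and no group without an agent or without an oligonucleotide is described in the labels. The labels give neither strain nor age.

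Conjugation makes reactive or fat-soluble compounds water-soluble, so that they can be exported into bile or blood. Gst enzymes join glutathione to electrophiles such as lipid aldehydes and epoxides, Ugt enzymes of the endoplasmic reticulum transfer glucuronic acid from UDP-glucuronate, and Sult enzymes of the cytosol transfer sulfate from the donor PAPS. Most members are expressed chiefly in hepatocytes, and several respond to xenobiotic sensors, to the oxidative stress factor NRF2 or to sex-dependent growth hormone secretion. TAA and CCl4 both injure the liver after activation by cytochrome P450 enzymes in the hepatocytes around the central vein.

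The injected oligonucleotide is named after miR-29a, whose main mature strand is shown here to identify it, from RefSeq on build GRCm38.p6 (chr6:31062673-31062694, minus strand), with the seed, bases 2 to 8, in capitals. The chemical form and exact sequence injected are not given in the sources used here.

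mmu-miR-29a-3p: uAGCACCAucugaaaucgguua

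Levels are log2 of each array's background-subtracted signal minus that array's 75th percentile, so 1 unit is 2-fold, and they compare arrays for 1 gene, not genes with each other. Between 43.9% and 48.4% of spots were well above background on each array and none was saturated. All 5 hepatocyte markers examined (Alb, Apoa1, Ttr, Serpina1c, Cyp2e1) were well above background on all 8 arrays. The 8 arrays came from 1 slide, on which the first row held the 4 CCl4 arrays and the second the 4 TAA arrays, so agent and slide row cannot be told apart. Spots with a background outlier flag numbered 428, 874, 1908 and 3150 on the 4 TAA arrays and 0 on each CCl4 array, and their part in the results was not tested. The TAA 1-week NC array stood apart from the rest. The 5 measured of 7 neutrophil markers averaged a log2 level of 5.96 there and -0.91 to 0.25 on the other 7 arrays (Ltf and Ngp were not measured), the 6 acute-phase genes 10.3 against 6.11 to 6.75, the 8 Kupffer cell markers 4.26 against 1.38 to 2.41, and the 6 male-biased liver genes 1.68 against 4.74 to 5.63. The CCl4 1-week NC array stood apart in the 5 mesothelial markers, which averaged 0.92 there and -3.02 to -1.37 on the other 7 arrays. Of these 5, Gpm6a and Upk3b were called lower in TAA livers at 1 week, and their part in the members' differences was not tested.

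Across both weeks and both oligonucleotides, no member passed the test between TAA and CCl4 livers. limma's moderated test with Benjamini-Hochberg adjustment over 18554 features called 0% of all features in this comparison, although 28.7% had an unadjusted p under 0.05. At that unadjusted level 4 members were higher and 9 lower in TAA livers. The median difference was -0.31 over Gst, -0.56 over Ugt and -0.19 over Sult members, against -0.13 over all features. TAA and CCl4 arrays did not overlap for 3 members that were higher (Gstm2, Ugt2a1, Sult1e1) and 6 that were lower (Gsto1, Ugt2b37, Ugt1a6b, Ugt2a3, Sult1a1, Sult1c2) in TAA livers, 22.5% of the members. Such separation was seen in 5.44% of all features upward and 18% downward, 23.5% in all. The sign was the same in all 4 matched pairs for 4 members that were higher and 13 that were lower, against 10.9% and 27.2% of all features, 38.1% in all. Among members with 1 sign in all 4 matched pairs, Gsto1, an omega-class enzyme that reduces dehydroascorbate, differed by -0.65 ± 0.20 (SE; pairs -1.15 to -0.27; limma adjusted p = 0.132). Gstm2, of the mu class, differed by 0.54 ± 0.19 (0.06 to 1.07; adjusted p = 0.142), and Gstt1, a theta-class enzyme that handles small halogenated compounds, by -0.47 ± 0.16 (-0.84 to -0.20; adjusted p = 0.137). For Ugt3a1 the difference was -0.92 ± 0.30 (-2.04 to -0.28; adjusted p = 0.135), for Ugt2a3 -0.80 ± 0.34 (adjusted p = 0.182) and for Ugt2a1 1.12 ± 0.42 (adjusted p = 0.153). Sult1c2 differed by -1.27 ± 0.38 (adjusted p = 0.13), and Sult2a7, of the hydroxysteroid sulfotransferases, by 0.77 ± 0.23 (adjusted p = 0.13). Sult1e1, the estrogen sulfotransferase, was well above background on all 4 TAA arrays and on 1 of 4 CCl4 arrays (2 weeks, miR-29a). It passed the detection filter through the group in which it was high, so no difference over both weeks is given for it. Both 1-week pairs lay further from 0 than both 2-week pairs in 6 of the other 8 genes named here, the exceptions being Gstm2 and Sult2a7. Each week is therefore given apart.

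**Figure D1:**
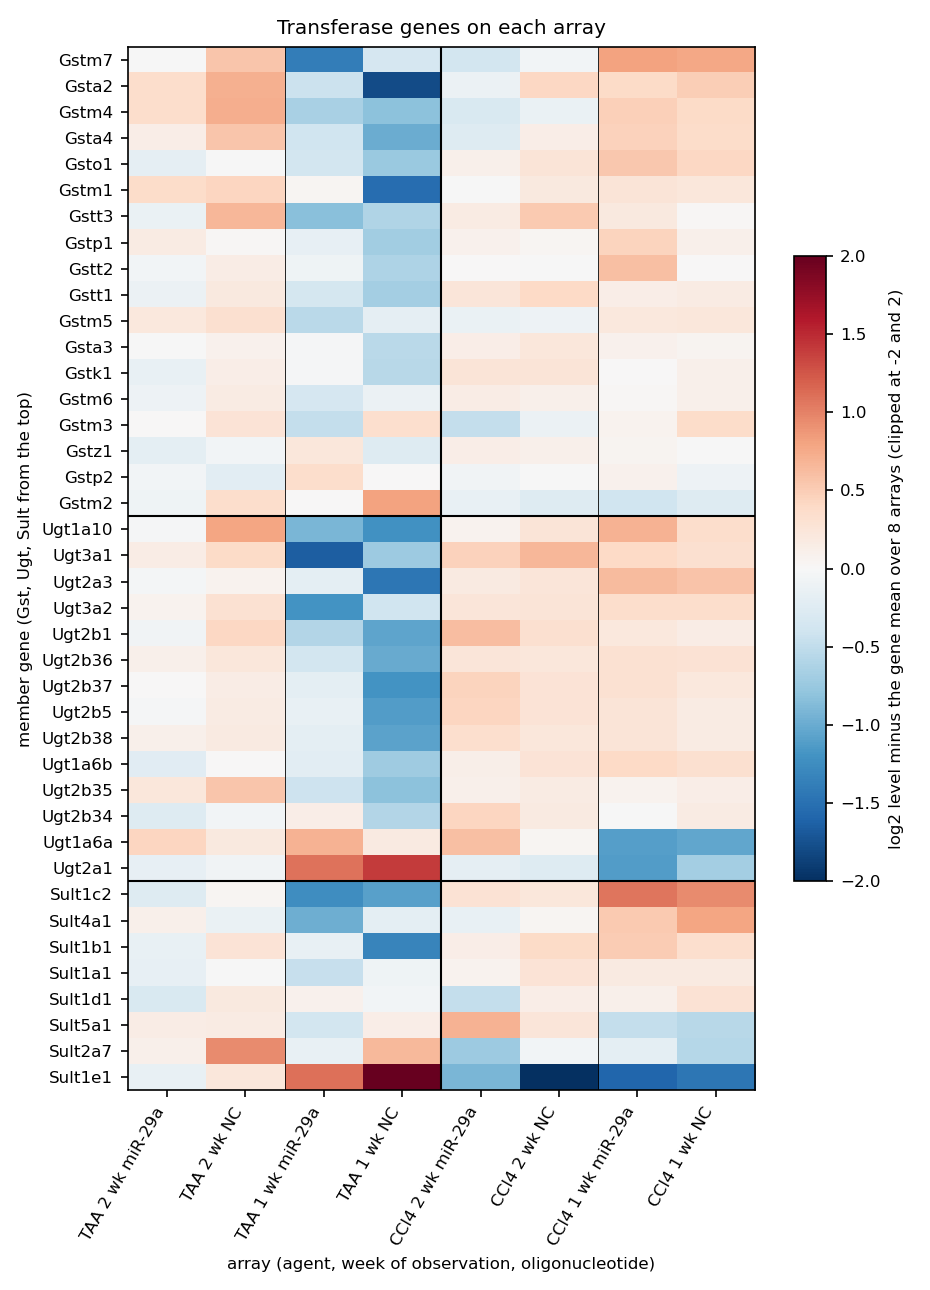
Log2 level of each of the 40 members on each of the 8 arrays (columns: agent, week, oligonucleotide), relative to the member's own mean over the 8 arrays; rows run Gst, Ugt, Sult from the top, ordered within a family by the TAA minus CCl4 difference at 1 week. The TAA 1-week NC column holds the lowest of the 8 values for 22 members (31.9% of all features), and the TAA 1-week miR-29a column for 10 (18.5%).

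At 1 week Gst and Ugt members moved mostly downward in TAA livers relative to CCl4 livers. Of 40 members, 18 were lower and 3 higher at a limma adjusted p under 0.05, against 23.1% of all features lower and 12.6% higher. Of the 3 higher ones, Sult1e1 passed the detection filter through its 4 TAA arrays, so its call supports nothing about the family. Both TAA arrays lay below both CCl4 arrays for 30 members (42.6% of all features) and above them for 6 (25.7%). At an unadjusted p under 0.05, which 48.3% of all features met, 25 members were lower and 4 higher. By family, 8 of 18 Gst members fell and none rose, and 8 of 14 Ugt members fell and 2 rose. Of 8 Sult members 2 fell and 1 rose, 25% and 12.5%, close to the shares of all features. The median difference was -0.66 over Gst, -0.90 over Ugt and -0.32 over Sult members, and -0.16 over all features tested. The difference between families was not tested. In whole-liver RNA, fewer hepatocytes and less RNA per hepatocyte cannot be told apart. Each agent had 2 arrays at 1 week, 1 per oligonucleotide, so the error rests on 3 residual degrees of freedom shared over the 8 arrays and moderated across genes.

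The count of calls depended on single arrays. With the miR-29a array of CCl4 at 1 week left out it was 4 (3 of them among the 21), where 9.50% of all features were called, and with the NC array of that pair left out 7, where 16.0% were. It was 11 on leaving out either CCl4 2-week array (23.4% of all features), 14 on leaving out either TAA 2-week array (28.2%) or the TAA 1-week NC array (30.4%), and 29 on leaving out the miR-29a array of TAA at 1 week (40.2%). With all 8 arrays 35.7% of all features were called. Sult1c2, Ugt1a6a and Ugt2a1 passed in all 8 of these fits. Without the TAA 1-week NC array, 12 of the 21 calls remained and the members' median difference was -0.48, against -0.77 with it. With each array's median in place of its 75th percentile, 33 members were called lower and 3 higher, as were 57.6% and 6.04% of all features. That scaling moved the median of all features to -0.75. It also moved the share of all calls that were lower to 90.5%, against 64.6%. The members' median minus that of all features was -0.61 under either scaling. These 2 values had to be equal, because the scalings differ by 1 constant per array. The same offset was -0.38 with quantile normalization, -0.38 without the TAA 1-week NC array and -0.52 without the CCl4 1-week miR-29a array. Most of the calls left without that last array were upward. Quantile normalization called 7 members lower and 3 higher, as were 17.8% and 13.7% of all features.

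**Figure D2:**
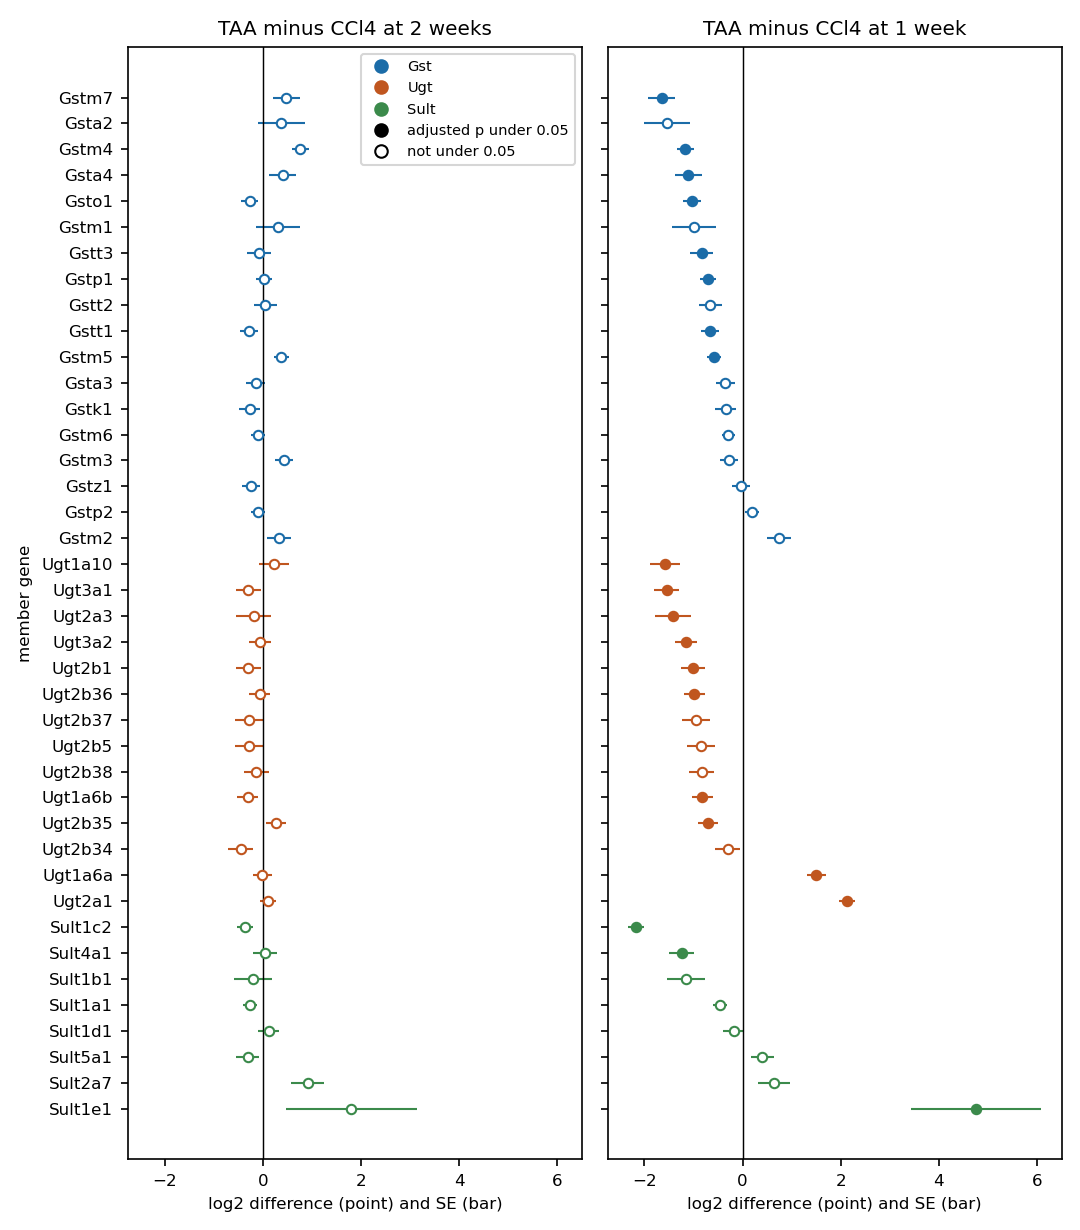
TAA minus CCl4 log2 difference of each member at 2 weeks (left) and at 1 week (right); points are limma estimates from 2 arrays per agent and bars their SE, filled where the adjusted p was under 0.05. At 2 weeks no point is filled; at 1 week 18 are filled below 0 and 3 above it.

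Among glutathione transferases, the mu class held the 2 largest differences below 0 that passed the test at 1 week, and also the member furthest above 0. Gstm7 had log2 levels of 0.23 (miR-29a) and 1.29 (NC) on the TAA 1-week arrays and of 2.43 (miR-29a) and 2.40 (NC) on the CCl4 1-week arrays. Both TAA arrays were below both CCl4 arrays, and the difference was -1.65 ± 0.27 (SE, n = 2 arrays each), 3.14-fold lower (limma adjusted p = 0.01). Its probe lies at chr3:107732073-107733247 on the minus strand of mm9, the build the array files name. Gstm4 gave 3.57 (miR-29a) and 3.40 (NC) in TAA livers and 4.70 (miR-29a) and 4.61 (NC) in CCl4 livers, a difference of -1.17 ± 0.18 (adjusted p = 0.00795; chr3:107846495-107846847). In both genes the TAA arrays lay below the CCl4 arrays, and the 2 TAA arrays of Gstm7 lay 1.06 apart. Gstm2 had 5.93 (miR-29a) and 6.73 (NC) in TAA livers and 5.51 (miR-29a) and 5.65 (NC) in CCl4 livers, which do not overlap, and its difference of 0.75 ± 0.24 did not pass the test (adjusted p = 0.0607).

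The other members that fell did so by less. Gsta4, an alpha-class enzyme that conjugates the lipid aldehyde 4-hydroxynonenal, had 2.17 (miR-29a) and 1.58 (NC) in TAA 1-week livers and 3.03 (miR-29a) and 2.94 (NC) in CCl4 1-week livers (-1.11 ± 0.28; adjusted p = 0.0316). Gsto1 had 5.81 (miR-29a) and 5.43 (NC) in TAA livers, against 6.71 (miR-29a) and 6.58 (NC) in CCl4 livers (-1.03 ± 0.18; adjusted p = 0.0122), and Gstt3 4.27 (miR-29a) and 4.5 (NC) in TAA livers, against 5.30 (miR-29a) and 5.13 (NC) in CCl4 livers (-0.83 ± 0.24; adjusted p = 0.046). Gstp1, of the pi class, gave 8.18 (miR-29a) and 7.65 (NC) in TAA livers and 8.79 (miR-29a) and 8.45 (NC) in CCl4 livers (-0.70 ± 0.16; adjusted p = 0.0255). In all 4 genes both TAA arrays were below both CCl4 arrays. Gstt1 and Gstm5 also fell, by 0.66 and 0.58 on the log2 scale. The alpha-class Gsta2 stood at 6.22 (miR-29a) and 4.85 (NC) in TAA livers and at 7.02 (miR-29a) and 7.14 (NC) in CCl4 livers. Its difference of -1.54 ± 0.47 was among the largest of the family but did not pass (adjusted p = 0.0546); its TAA arrays lay 1.37 apart. Gstp2, whose probe had the highest signal of the Gst set, was at 10.03 (miR-29a) and 9.68 (NC) in TAA livers and 9.75 (miR-29a) and 9.57 (NC) in CCl4 livers (0.19 ± 0.15; adjusted p = 0.353). Gstz1, the maleylacetoacetate isomerase of tyrosine breakdown, differed by -0.04 ± 0.18 (adjusted p = 0.875) and Gstk1, an enzyme of mitochondria and peroxisomes, by -0.35 ± 0.22 (adjusted p = 0.256).

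Among the glucuronosyltransferases, both Ugt3a genes and 6 others fell. Ugt3a1 had 2.46 (miR-29a) and 3.38 (NC) in TAA 1-week livers and 4.51 (miR-29a) and 4.42 (NC) in CCl4 1-week livers, a difference of -1.55 ± 0.25 (adjusted p = 0.00988; probe at chr15:9244664-9244723). Ugt3a2 had 4.67 (miR-29a) and 5.47 (NC) in TAA livers, against 6.23 (miR-29a) and 6.23 (NC) in CCl4 livers (-1.16 ± 0.23; adjusted p = 0.0163). The human proteins of this small subfamily use sugars other than glucuronic acid. In both genes the TAA 1-week miR-29a array was the lowest of all 8, unlike most members. Ugt2a3 gave 5.55 (miR-29a) and 4.30 (NC) in TAA livers and 6.37 (miR-29a) and 6.32 (NC) in CCl4 livers (-1.42 ± 0.36; adjusted p = 0.0328; chr5:87754406-87754465).

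Ugt1a10 had 0.31 (miR-29a) and 0.01 (NC) in TAA 1-week livers and 1.92 (miR-29a) and 1.58 (NC) in CCl4 1-week livers (-1.59 ± 0.31; adjusted p = 0.0154). The accession field of this probe also names Ugt1a9, and the second detected probe, which names Ugt1a10 alone, differed by -0.44 and was not called, so this value is uncertain too. All 7 Ugt2b members, which act on steroids, bile acids and drugs, lay below 0, between -1.01 (Ugt2b1) and -0.31 (Ugt2b34). Of these, Ugt2b1, Ugt2b36 and Ugt2b35 passed the test. Ugt2b37, Ugt2b38 and Ugt2b5 had adjusted p-values of 0.0527, 0.0536 and 0.0731. The accession field of the Ugt2b36 probe also names Ugt2b37, so these near-identical genes are uncertain.

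The Ugt1a locus makes several enzymes from alternative first exons joined to a shared 3′ part, and 2 member probes lie close together on chromosome 1 with accessions of several of them. The probe named Ugt1a6b (chr1:90115493-90115552, plus strand) had 8.38 (miR-29a) and 7.88 (NC) in TAA 1-week livers and 8.98 (miR-29a) and 8.91 (NC) in CCl4 1-week livers (-0.82 ± 0.21; adjusted p = 0.0329). The probe named Ugt1a6a (chr1:90116514-90116573, plus strand) had -0.23 (miR-29a) and -0.74 (NC) in TAA livers, against -2.02 (miR-29a) and -1.95 (NC) in CCl4 livers and was 2.84-fold higher in TAA livers (1.5 ± 0.19; adjusted p = 0.00583). The accession field of each names transcripts of 4 genes of the locus (Ugt1a10, Ugt1a6a and Ugt1a7c in both, with Ugt1a6b in the first and Ugt1a1 in the second), so neither value belongs to 1 enzyme. A further Ugt1a6b probe at chr1:90004249-90004308, which names that gene alone, differed by -1.88. Ugt2a1, known from olfactory epithelium, was also higher, at -1.43 (miR-29a) and -1.12 (NC) in TAA livers and -3.62 (miR-29a) and -3.18 (NC) in CCl4 livers (2.13 ± 0.17; adjusted p = 0.00411). Its probe names Ugt2a2 as well. It was not well above background on the CCl4 1-week miR-29a array, so that value, and the differences that use it, rest partly on a signal at background.

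The promoters of Ugt2a3 and Ugt3a1, which both fell at 1 week, are shown because both held GTTAAT, any 2 bases and TTAA, a pattern like the site bound by the hepatocyte factor HNF1, in the window from 250 bases before to 50 bases after the RefSeq start (GRCm38.p6). The match is in capitals, searched on both strands. It was held by 0.17% of the 27025 symbols that have a promoter there, and of the 34 members with one only these 2 did; they were picked for display after the search, and a match is a description of the letters, not a site.

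Ugt2a3 (chr5:87337146-87337445, minus strand): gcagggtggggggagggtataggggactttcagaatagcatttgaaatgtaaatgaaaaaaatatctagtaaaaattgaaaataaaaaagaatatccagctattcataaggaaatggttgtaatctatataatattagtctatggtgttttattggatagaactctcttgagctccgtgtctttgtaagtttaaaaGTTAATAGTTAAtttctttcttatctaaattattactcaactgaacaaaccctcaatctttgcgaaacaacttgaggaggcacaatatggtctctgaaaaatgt
Ugt3a1 (chr15:9279579-9279878, plus strand): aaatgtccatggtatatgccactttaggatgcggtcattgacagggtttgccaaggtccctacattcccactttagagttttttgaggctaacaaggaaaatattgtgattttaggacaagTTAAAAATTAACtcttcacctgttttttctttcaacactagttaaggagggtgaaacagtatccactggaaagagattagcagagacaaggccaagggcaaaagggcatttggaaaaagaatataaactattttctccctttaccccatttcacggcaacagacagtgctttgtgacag

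Other patterns searched over both strands were spread among the members. TTGCNNAA, bound by C/EBP factors, was in 12.2% of all promoters and in 8 of the 34 (Gsta3, Gstm2, Gstt1, Sult1c2, Ugt2a3, Ugt2b1, Ugt2b36, Ugt2b5). GCGTG, the core bound by the aryl hydrocarbon receptor, was in 35.2% of all and in 6 members, TGTTTAC, bound by FOXA factors, in 4.05% and 4 members, and TTCNNNGAA, bound by STAT factors, in 9.55% and 2 members.

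The member furthest below 0 at 1 week was a sulfotransferase, Sult1c2. Leaving aside Sult1e1, which entered the test through the TAA arrays, the member furthest above 0 was Ugt2a1, of the Ugt family. Sult1c2 had -0.10 (miR-29a) and 0.06 (NC) in TAA 1-week livers and 2.22 (miR-29a) and 2.10 (NC) in CCl4 1-week livers, 4.52-fold lower (-2.18 ± 0.16; adjusted p = 0.00411; probe at chr17:53969205-53969264). Both TAA arrays were far below both CCl4 arrays, and the arrays of each agent were close to each other. Sult1e1, which sulfates and inactivates estrogens, had -1.20 (miR-29a) and 3.07 (NC) in TAA livers and -3.89 (miR-29a) and -3.75 (NC) in CCl4 livers. It was well above background on all 4 TAA arrays, on neither CCl4 1-week array and on 1 of 2 CCl4 2-week arrays, so the difference is a bound, and the gene entered the test through the TAA arrays. The CCl4 1-week level was set at the lowest signal called above background on those arrays, or the probe's own signal where higher. Against it the mean of the 2 TAA 1-week arrays was at least 21.5-fold higher, with measured means of 0.94 (TAA) and -3.82 (CCl4). This bound is for the mean and leans on the NC array at 3.07, since the miR-29a array stood at -1.20. The fitted difference was 4.76 ± 1.33 (adjusted p = 0.0424), and the 2 TAA arrays lay 4.27 apart. Without the TAA 1-week NC array the fitted difference was 2.42 and did not pass.

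Sult4a1, a sulfotransferase-like protein best known from brain, had -2.48 (miR-29a) and -1.69 (NC) in TAA livers and -0.98 (miR-29a) and -0.70 (NC) in CCl4 livers (-1.24 ± 0.25; adjusted p = 0.0171). It was not well above background on the TAA 1-week miR-29a array, so the difference rests partly on a signal at background. Sult1a1, the phenol sulfotransferase whose probe was the brightest of the Sult set, gave 6.41 (miR-29a) and 6.78 (NC) in TAA livers, against 7.05 (miR-29a) and 7.06 (NC) in CCl4 livers (-0.46 ± 0.14; adjusted p = 0.0561). Sult1b1, which sulfates thyroid hormones, stood at 3.71 (miR-29a) and 2.55 (NC) in TAA livers, against 4.37 (miR-29a) and 4.19 (NC) in CCl4 livers (-1.15 ± 0.39; adjusted p = 0.0706). Sult5a1 differed by 0.40 ± 0.24 and Sult2a7 by 0.64 ± 0.33, and neither passed (adjusted p = 0.236 and 0.178). With quantile normalization the Sult median at 1 week was 0.04, on the other side of 0.

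At 2 weeks no member differed between TAA and CCl4 livers past the threshold, nor did any other feature (0%), while 11.3% of features had an unadjusted p under 0.05 in limma. At that level 3 members were higher in TAA livers and none lower. Gstm4 had 4.58 (miR-29a) and 4.95 (NC) in TAA 2-week livers and 3.92 (miR-29a) and 4.09 (NC) in CCl4 2-week livers (0.76 ± 0.18; adjusted p = 0.439). Gstm5 differed by 0.38 ± 0.14 (adjusted p = 0.439) and Sult2a7 by 0.91 ± 0.33 (adjusted p = 0.439). The TAA arrays lay above both CCl4 arrays for 6 Gst members, all of the mu class (Gstm1, Gstm2, Gstm3, Gstm4, Gstm5, Gstm7). They lay below them for 5 Gst members of other classes (Gsta3, Gstk1, Gsto1, Gstt1, Gstz1). The remaining mu-class member, Gstm6, differed by -0.10, and the alpha-class Gsta2 and Gsta4 were above 0 in both matched pairs. Over all 40 members groups did not overlap for 10 that were higher and 15 that were lower in TAA livers, as for 18.1% and 37.6% of all features. Family medians were 0.04 (Gst), -0.16 (Ugt) and -0.08 (Sult), against -0.08 for all features.

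The difference between the weeks was itself tested as the agent-by-week term, the TAA minus CCl4 difference at 2 weeks minus that at 1 week. It passed for 4 members above 0 and 2 below, 10.0% and 5.00% of 40, against 5.51% and 4.29% of all features. At an unadjusted p under 0.05, which 30.4% of all features met, it was above 0 for 15 members and below 0 for 2. Gstm7 had a term of 2.13 ± 0.38 (limma adjusted p = 0.0355), Gstm4 of 1.93 ± 0.25 (adjusted p = 0.0268), Sult1c2 of 1.81 ± 0.22 (adjusted p = 0.0268) and Gstm5 of 0.96 ± 0.20 (adjusted p = 0.0477). Below 0 were Ugt2a1, with 1 of its 8 arrays at background as given above, at -2.03 ± 0.24 (adjusted p = 0.0268) and the Ugt1a6a probe at -1.51 ± 0.27 (adjusted p = 0.036).

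Gstm4, Gstm5 and Gstm7 each had their lowest mean in TAA 1-week livers. Gstm7 gave 1.61 (miR-29a) and 2.18 (NC) on the TAA 2-week arrays and 1.26 (miR-29a) and 1.57 (NC) on the CCl4 2-week arrays, so that TAA lay above CCl4 at 2 weeks and below it at 1 week. Gstm5 had 2.40 (miR-29a) and 2.51 (NC) in TAA 2-week livers and 1.65 (miR-29a) and 2.01 (NC) in TAA 1-week livers, and 2.06 (miR-29a) and 2.10 (NC) in CCl4 2-week livers and 2.40 (miR-29a) and 2.42 (NC) in CCl4 1-week livers. Levels at 2 weeks were thus above those at 1 week after TAA, and below them after CCl4, in all matched pairs of Gstm4, Gstm5 and Gstm7. Sult1c2 followed the same 2 directions, with 0.89 (miR-29a) and 1.19 (NC) in TAA 2-week livers and 1.43 (miR-29a) and 1.37 (NC) in CCl4 2-week livers, but TAA stayed below CCl4 at both weeks. Ugt2a1 at 2 weeks was at -2.68 (miR-29a) and -2.58 (NC) after TAA and -2.69 (miR-29a) and -2.77 (NC) after CCl4, and the Ugt1a6a probe at -0.49 (miR-29a) and -0.73 (NC) after TAA and -0.32 (miR-29a) and -0.88 (NC) after CCl4. For Ugt2a1 the TAA 1-week arrays were the high ones, whereas for the Ugt1a6a probe the CCl4 1-week arrays were the low ones. None of the 6 terms passed in every fit that left out 1 array. The share of all features that passed also changed with the array left out. Over these 8 fits the term ran from 1.74 to 2.52 for Gstm7, 1.74 to 2.13 for Gstm4 and 1.66 to 1.97 for Sult1c2. It ran from 0.81 to 1.11 for Gstm5, -2.21 to -1.84 for Ugt2a1 and -1.77 to -1.26 for the Ugt1a6a probe. With all 8 arrays 9.8% of all features passed.

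**Figure D3:**
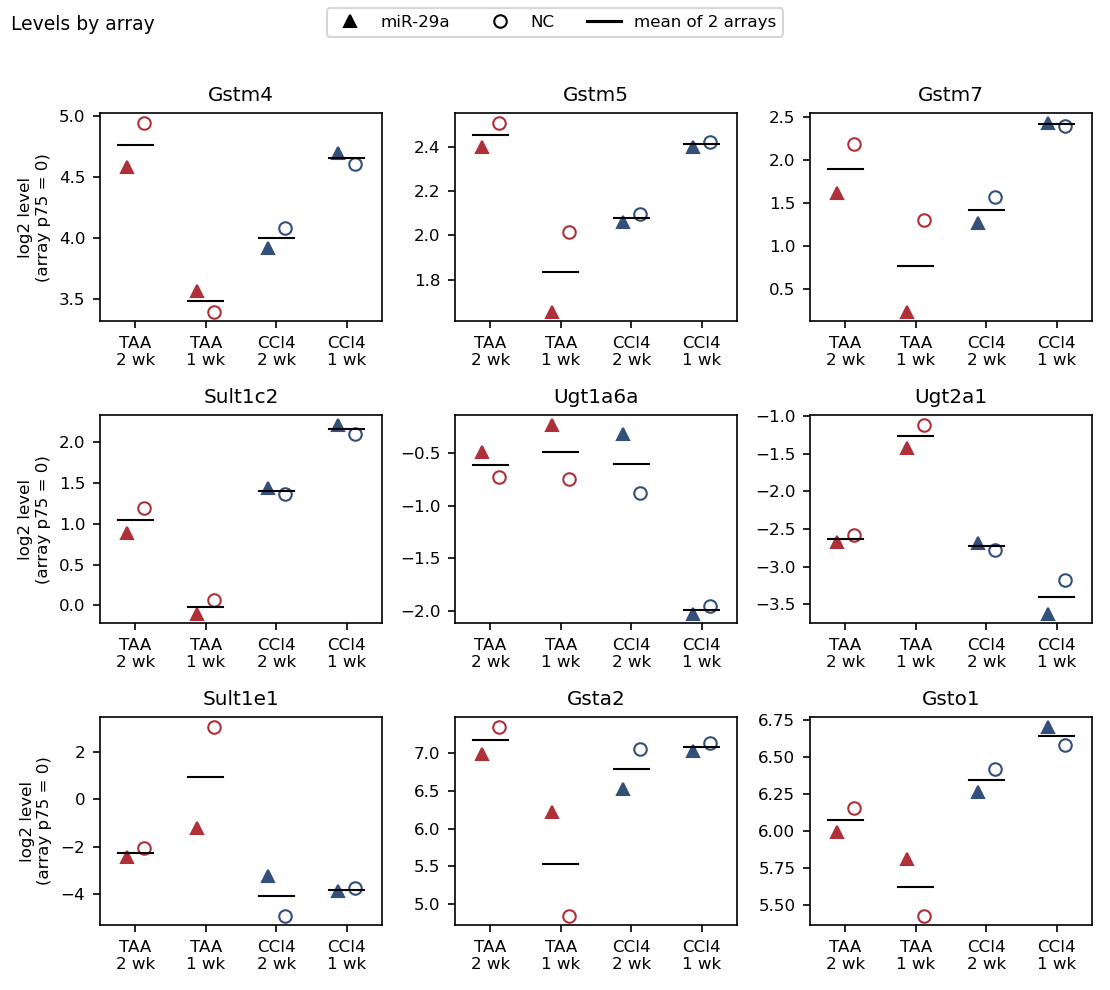
Log2 level (0 is the array's 75th percentile) of 9 members on each array, by agent and week; triangles are miR-29a arrays, open circles NC arrays and bars the mean of the 2. Gstm4, Gstm5, Gstm7 and Sult1c2 have their lowest mean at TAA 1 week, Ugt2a1 and Sult1e1 their highest there, and the Ugt1a6a probe its lowest at CCl4 1 week; in Sult1e1 and Gsta2 the TAA 1-week NC array lies far from its partner.

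Gstm7 and Gstm5 also both held the antioxidant response element core, TGACNNNGC on either strand, in their RefSeq promoters, and these are shown with the match in capitals. It was found in 14% of all promoters and in 3 of the 34 members' (8.82%), the third being Gsta3, and Gstm4, which moved with them, was not among the 3.

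Gstm7 (chr3:107931565-107931864, minus strand): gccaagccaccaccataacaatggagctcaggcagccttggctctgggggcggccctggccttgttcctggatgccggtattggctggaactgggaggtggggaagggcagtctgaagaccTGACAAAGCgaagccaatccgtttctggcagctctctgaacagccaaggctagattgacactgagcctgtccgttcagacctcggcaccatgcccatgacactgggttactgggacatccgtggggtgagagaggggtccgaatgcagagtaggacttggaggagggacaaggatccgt
Gstm5 (chr3:107895604-107895903, plus strand): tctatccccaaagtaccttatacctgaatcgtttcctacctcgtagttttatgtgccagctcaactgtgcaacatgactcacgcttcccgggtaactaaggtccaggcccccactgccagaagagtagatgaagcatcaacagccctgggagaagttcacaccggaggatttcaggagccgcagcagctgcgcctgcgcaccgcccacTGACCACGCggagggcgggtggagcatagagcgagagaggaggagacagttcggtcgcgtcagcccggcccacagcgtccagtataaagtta

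Between 2 weeks and 1 week, over both agents, no member passed the test, and 0% of all features did (963 features, 5.19%, had an unadjusted p under 0.05 in limma). At the unadjusted level 4 members were higher at 2 weeks and none lower. The Ugt family had a median difference of 0.43, and 6 of its 14 members were higher at 2 weeks in all 4 pairs, as were 6.06% of all features. Ugt3a1 differed by 0.83 ± 0.30 (pairs 0.06 to 1.79; adjusted p = 0.871), Ugt2b1 by 0.65 ± 0.22 (0.17 to 1.48; adjusted p = 0.871) and Ugt2b35 by 0.52 ± 0.24 (0.03 to 1.39; adjusted p = 0.871). Of Gst members, Gstt1 differed by 0.36 ± 0.16 and Gsta3 by 0.22 ± 0.15 with 1 sign in all pairs (adjusted p = 0.871 and 0.88). Sult5a1 was the 1 member whose 2-week and 1-week arrays did not overlap, at 1.21 to 1.76 and 0.51 to 1.20, with a difference of 0.62 ± 0.22 (adjusted p = 0.871). Such separation was seen in 1.22% of all features upward and 1.35% downward, 2.57% in all.

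The weeks were also compared within each agent. The medians of 2 weeks minus 1 week after TAA were 0.49 (Gst), 0.81 (Ugt) and 0.27 (Sult), against 0.04 for all features, and after CCl4 they were -0.18 (Gst), 0.09 (Ugt) and -0.21 (Sult), against -0.03. The difference between the agents is the agent-by-week term above. No member passed after either agent. limma called 0% of all features after TAA, where 26.9% had an unadjusted p under 0.05, and 1.08% after CCl4 (0.992% higher, 0.0862% lower). At the unadjusted level 17 members were higher and 1 lower at 2 weeks after TAA. After CCl4 3 were higher and 5 lower at that level, which 18.6% of all features met there. Gstm4 differed by 1.28 ± 0.18 after TAA (adjusted p = 0.0635) and by -0.65 ± 0.18 after CCl4 (adjusted p = 0.142). The Ugt1a6a probe differed by 1.39 ± 0.19 after CCl4 (adjusted p = 0.0512) and by -0.12 ± 0.19 after TAA (adjusted p = 0.713). With normexp background correction, 17 members passed after TAA, as did 13.7% of all features.

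No member passed the test between miR-29a and NC livers, which does not show that their levels were equal. The adjusted test called 0% of all features (526, 2.83%, had an unadjusted p under 0.05), and no member reached even the unadjusted level. Family medians were 0.00 (Gst), 0.11 (Ugt) and -0.22 (Sult), with 0.03 for all features. A total of 5 members kept 1 sign in all 4 matched pairs (12.5%), as 16% of all features did. Gstm3 differed by -0.43 ± 0.20 (pairs -0.82 to -0.26), Gstp1 by 0.27 ± 0.19 (0.04 to 0.53), Gstm5 by -0.13 ± 0.22, Ugt3a2 by -0.26 ± 0.27 and Sult1a1 by -0.19 ± 0.12, all with limma adjusted p-values of 1.00. The miR-29a by agent and miR-29a by week terms were passed by no member and by 0% of all features, and no member had an unadjusted p under 0.05 in either.

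The 4 matched pairs did not run 1 way. On the TAA 2-week arrays 36 of 40 members were lower with miR-29a than with NC, with a median of -0.23, whereas 47.4% of all features were higher with miR-29a. On the TAA 1-week arrays 25 members were higher with miR-29a and 15 lower (median 0.37; 62.6% of all features higher). Within that pair the Gst median was 0.37 and the Ugt median 0.51, while the Sult median was -0.43. Gstm1 was 1.58 higher and Ugt2a3 1.25 higher with miR-29a, and the Sult1e1 difference was -4.27. The CCl4 pairs had medians of -0.07 at 2 weeks and 0.04 at 1 week. Each pair is 1 array against 1 array, so none of these pair values carries a test.

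Many members were lowest on the TAA 1-week NC array. It held the lowest of the 8 levels for 22 of 40 members (11 Gst, 10 Ugt, 1 Sult), where 31.9% of all features had their lowest level on it. Gsta2 was at 4.85 there and between 6.22 and 7.35 on the other 7 arrays, Gstm1 at 6.88 and 8.41 to 8.84, and Ugt2b5 at 6.30 and 7.28 to 7.85. On the same array Saa1, an acute-phase protein made by hepatocytes, was at 10.99, against 4.42 to 5.70 elsewhere. Lcn2, an acute-phase and neutrophil protein, was at 10.05 there and 0.65 to 1.44 elsewhere, and Slco1a1, a male-biased transporter, at -2.97 there and 0.47 to 3.07 elsewhere, with 7 of 8 arrays well above background. The 5 hepatocyte markers averaged 9.63 there and 9.80 to 10.09 on the other arrays. The part of acute-phase, neutrophil, Kupffer cell and male-biased genes in the differences of the members was not tested.

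Of the 40 members, 15 had more than 1 probe well above background, 32 probes in all, and these did not always give 1 answer at 1 week. In 10 of the 15 the dimmest probe lay further below 0 than the brightest one used here, and in 5 less far. Gstp2 differed by 0.19 on its brightest probe and -0.66 on the other, a change of sign, and Gstm2 by 0.75, 0.71 and -0.04. Both Gstm3 and Gstm6 had a further probe with a larger fall, -1.04 beside -0.29 for Gstm3 and -1.24 beside -0.29 and -0.24 for Gstm6. For Gsta3 the values were -0.35 and -0.76 on neighbouring probes. Ugt3a2 and Ugt1a10 went the other way, with -1.16 on the probe used and -0.06 on a dimmer one for Ugt3a2, and -1.59 and -0.44 for Ugt1a10. With the dimmest probes, Ugt1a10, Ugt2b35 and Ugt3a2 lost their calls. The probes of Gstm4 (-1.17 and -1.33) and Gstm1 (-0.99 and -0.89) were closer to each other, and those of Gstm7 gave -1.65 and -1.11. The array files place the brightest Gstm1 probe at chr5:117082490-117082549, away from the mu-class cluster on chromosome 3 where its second probe lies. The second Gstp1 probe names Gstp2 as well, so these near-identical genes may share signal. Taking each gene's dimmest detected probe gave 24 calls at 1 week, 21 of them lower, where 36.6% of all features were called, and 18 of the 21 calls were the same genes.

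**Figure D4:**
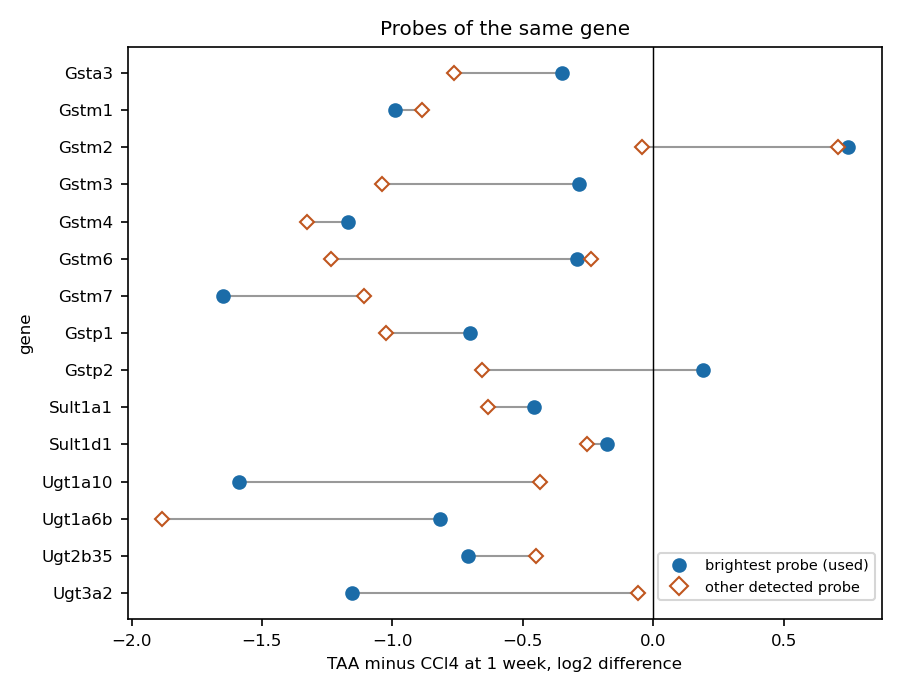
TAA minus CCl4 log2 difference at 1 week for each detected probe of the 15 members that have more than 1; filled circles are the brightest probe used for the gene and diamonds the others. Gstp2 and Gstm2 have probes on both sides of 0, and Gstm1, Gstm4 and Sult1d1 have probes that lie close together.

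Genes that supply the co-substrates were examined beside the transferases, again as TAA minus CCl4 at 1 week. Of 19 measured genes of glutathione synthesis and turnover and of NADPH supply, 4 fell and 1 rose, against 23.1% and 12.6% of all features. Gclm, the modifier subunit of glutamate-cysteine ligase, had 1.47 (miR-29a) and 1.44 (NC) in TAA livers and 3.03 (miR-29a) and 3.08 (NC) in CCl4 livers, a difference of -1.60 ± 0.14 (adjusted p = 0.00418). Gss, glutathione synthetase, differed by -0.82 ± 0.13 (adjusted p = 0.00947), and Cth, which makes cysteine, by -0.95 ± 0.13 (adjusted p = 0.00669). Chac1, a glutathione-degrading enzyme of the stress response, rose by 1.51 (adjusted p = 0.0442). Its relative Chac2 was the other gene that fell, at 2.50 (miR-29a) and 1.83 (NC) in TAA livers and 3.11 (miR-29a) and 3.30 (NC) in CCl4 livers. The catalytic subunit Gclc differed by -0.51 ± 0.48 (adjusted p = 0.438). Both Gclm and Gss also passed the agent-by-week term, at 1.51 ± 0.19 and 0.93 ± 0.19 (adjusted p = 0.0268 and 0.0433).

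Of 9 genes of UDP-glucuronate supply, 2 fell and 1 rose. Ugp2, which makes UDP-glucose, fell by 1.40 (adjusted p = 0.0353). Slc35d1, the carrier of UDP-glucuronate into the endoplasmic reticulum, had 6.01 (miR-29a) and 5.23 (NC) in TAA livers and 3.90 (miR-29a) and 3.97 (NC) in CCl4 livers, a rise of 1.69 ± 0.22 (adjusted p = 0.00594), and its agent-by-week term was -1.73 ± 0.31 (adjusted p = 0.0356). Ugdh, which oxidizes UDP-glucose to UDP-glucuronate, differed by 0.38 ± 0.20 (adjusted p = 0.186). Of 11 measured genes of sulfate and PAPS supply, 4 fell and none rose, among them Suox by 0.73 and Bpnt1, which clears the product of PAPS use, by 0.56. Papss2, the PAPS synthase, differed by -0.09 ± 0.19 (adjusted p = 0.718). Against these counts, 23.1% of all features fell and 12.6% rose.

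The counts that follow stand beside 23.1% of all features called lower and 12.6% called higher at 1 week, and no list was tested against those shares. Among 15 measured microsomal and other glutathione-using enzymes, 5 fell and 2 rose. Mgst3 differed by -1.12 ± 0.30 (adjusted p = 0.0379) and Hagh, of the glyoxalase pathway, by -1.0 ± 0.20 (adjusted p = 0.0163), while Gpx2, a glutathione peroxidase, differed by 1.41 ± 0.24 (adjusted p = 0.0106). Of 10 ABC exporters, some of conjugates and some of other compounds, 2 fell (Abcb1a by 0.77, Abcg2 by 0.69) and 1 rose (Abcc5 by 1.18). Abcc2, the canalicular exporter of glucuronides and glutathione conjugates, differed by 0.02 ± 0.17 (adjusted p = 0.933). Of 18 measured receptors and regulators 3 fell: Bcl6, a repressor in the growth hormone pathway, by 2.71, Stat5b by 0.91 and Nfe2l2, which encodes NRF2, by 0.83. Among 14 measured NRF2 targets 2 rose (Gpx2, Cbr3) and 1 fell (Gclm), and Nqo1, Srxn1 and Txnrd1 differed by 0.26, 0.17 and 0.02 with adjusted p-values of 0.307, 0.418 and 0.907. Of 11 measured CAR and PXR targets 2 fell, Cyp2c29 by 1.32 and Cyp2c55 by 1.27. No AHR target of 5 measured passed. Among zonation markers 3 of 7 pericentral genes (Axin2, Cyp2e1, Slc1a2) and 3 of 7 periportal genes (Arg1, Cps1, Hsd17b13) fell and none rose.

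The 13 genes that did not pass the detection filter were Gstcd, Gsto2, Gstt4, Ugt8a, Sult1c1, Sult2a1, Sult2a2, Sult2a3, Sult2a4, Sult2a6, Sult2b1, Sult3a1 and Sult6b1. Just inside the filter was Sult1e1, on 5 arrays, followed by Ugt2a1 and Sult4a1 on 7, and the other 37 members passed on all 8. Further genes now named in these families sit on the array under older names and are therefore no members. Gstp3 (listed as BC021614) and Sult2a8 (listed as 2810007J24Rik) were well above background on all 8 arrays and differed at 1 week by -0.19 and -0.98 between TAA and CCl4 livers, neither past the threshold (limma adjusted p = 0.476 and 0.22).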

How the data were processed

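RNA of 8 mouse livers was hybridised to Agilent one-colour arrays, 1 per combination of agent, week and oligonucleotide. The deposited scanner files hold background-subtracted intensity values made with Agilent Feature Extraction 10.10.1.1, per the file headers, and quality flags, deposited as a score of 0 or 1. The authors' deposited value table is on a log2 scale and equalled log2 of that signal minus a constant per array, within 0.01 for 99.8% of 55657 probes. How the constant was chosen is not given in the sources used here, and its direction and scale follow the scanner values. Its column medians after TAA were -3.56 (2 weeks, miR-29a), -3.72 (2 weeks, NC), -3.46 (1 week, miR-29a) and -3.45 (1 week, NC), and after CCl4, in that order, -3.80, -3.86, -4.06 and -4.03.

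Control spots and spots with a feature outlier flag were left out, spots of a probe were averaged, and each array's 75th percentile was subtracted on the log2 scale. The brightest probe stood for a gene, and the features tested had to be well above background on 4 or more of 8 arrays. limma 3.58.1 in R 4.3.3 fitted agent, week and oligonucleotide as additive terms. The comparisons within a week or agent and the agent-by-week term came from a fit with that interaction, and the oligonucleotide interactions from fits with theirs. P-values were adjusted by Benjamini-Hochberg over 18554 features at 0.05, and errors after ± are standard errors. The fits were tested on simulated data. The labels do not say that arrays came from separate animals, so p-values measure the spread between these samples.

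The members, the gene lists and the rule for named genes (members past the threshold, those with 1 sign in all pairs, and the brightest of each family) were chosen with earlier results of these data known. Array design coordinates are on mm9, and promoters and the miRNA come from RefSeq tables on GRCm38.p6. Of 78 member probes, 74 matched a RefSeq accession, all under the same symbol.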

Additional observations from a re-analysis of the deposited data

Results flagged for a closer look

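Of the 80 sets of 4 arrays examined (each member within TAA and within CCl4) 3 had 1 array far from the rest by Dixon's criterion, where chance gives about 1 in 20. Gstp1 was highest among CCl4 arrays on the 1-week miR-29a array, at a log2 level of 8.79, and Gstt2 on the same array, at 4.79. Sult5a1 was lowest among TAA arrays on the 1-week miR-29a array, at 0.70.

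The TAA minus CCl4 difference itself differed between 2 weeks and 1 week for 6 members by the limma interaction test. The term was 2.13 for Gstm7, 1.93 for Gstm4, 1.81 for Sult1c2, 0.96 for Gstm5, -1.51 for the Ugt1a6a probe and -2.03 for Ugt2a1. None of the 6 passed in every fit that left out 1 array. The share of all features that passed also changed with the array left out.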

How the results depend on the processing

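With 1 array per combination, error came from pooling over combinations, and 1 slide and 1 scan left no slide block to fit. Leaving out 1 array at a time gave 4 to 29 members called between TAA and CCl4 at 1 week (1 to 24 lower, 2 to 5 higher), 0 to 1 between weeks after CCl4, 0 to 12 after TAA, and 0 to 14 for the agent-by-week term. Over the same fits 9.50% to 40.2% of all features were called at 1 week and 0% to 12.8% for the agent-by-week term. Between weeks, 0% to 2.74% of all features were called after CCl4 and 0% to 4.57% after TAA. The 1-week family medians then ranged over -0.87 to -0.49 (Gst), -1.20 to -0.49 (Ugt) and -0.41 to -0.22 (Sult). A lone remaining array was assumed to vary like the others. With array median scaling, 12 members were called between TAA and CCl4 over both weeks (29.2% of all features), 36 at 1 week (33 lower; 63.6% of features), 6 between weeks after TAA (4.11%) and 15 for the agent-by-week term (18.5%), with 1-week medians of -1.25 (Gst), -1.49 (Ugt) and -0.91 (Sult). Quantile normalization gave 10 calls at 1 week (7 lower; 17.8% of features lower and 13.7% higher) and medians of -0.35 (Gst), -0.55 (Ugt) and 0.044 (Sult). Normexp background correction gave 1 call after CCl4 (1.47% of features), 17 after TAA (13.7%) and 14 for the agent-by-week term (18.5%), with medians of -0.73 (Gst) and -0.36 (Sult). Without a filter on dim probes there were 8 calls at 1 week (6 lower; 11.1% of features), 0 for the agent-by-week term and a Sult median of 0.60, over more and dimmer genes. Requiring all 8 arrays well above background gave 1 call after CCl4 (1.71% of features) and 4 after TAA (5.04%). The mean of all probes gave a Sult median of -0.38. The dimmest detected probe, chosen after seeing the data, gave 10 agent-by-week calls (11.6% of features) and medians of -0.86 (Gst) and -0.44 (Sult). Leaving out 1 array gave miR-29a minus NC values of -0.28 to 0.046 for Gstm5 and -0.46 to 0.0073 for Ugt3a2, above 0 only on leaving out the miR-29a array of TAA at 1 week, and the dimmest probe gave 0.0088 for Ugt3a2. Except for the filters, which change the genes tested, the cause was not tested. With the matched agent and week combination as a block, 0 members were called between miR-29a and NC.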
